A study of Mus musculus with 6 samples.

Results

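The CXC chemokines are small secreted proteins, named for a pair of cysteines with 1 residue between them, that draw leukocytes towards their source. Members were the rows of the deposited gene table whose symbol is Cxcl1, Cxcl2, Cxcl3, Cxcl5, Cxcl9, Cxcl10, Cxcl11, Cxcl12, Cxcl13 or Cxcl16, and all 10 were found among 15487 genes. The libraries came from tumour-associated macrophages, isolated by flow cytometry on day 15 from tumours grown from CT26, a mouse colon carcinoma line. In 3 libraries the implanted tumour is labelled CT26-Sg-Con and in 3 CT26-Sg-C3, some of the latter titled C3KO, and the study's title concerns complement C3. The sampled macrophages are labelled wild type and BALB/C in both groups, so C3 RNA in them does not check a change made in the tumour cells. What Sg stands for, the age of the hosts, the number of tumour cell clones and any pooling of animals are not stated in these sources. Replicates are numbered in accession order. No label ties a library to its own animal, so the p-values describe the spread among these libraries, part of which may be technical.

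As background, the family divides by receptor. Cxcl9, Cxcl10 and Cxcl11 bind Cxcr3, a receptor of activated T cells and NK cells, and are known as genes induced by interferon gamma. Cxcl1, Cxcl2, Cxcl3 and Cxcl5 bind Cxcr2, which recruits neutrophils, and are known as targets of NF-kB downstream of Toll-like and interleukin 1 receptors. Cxcl12 binds Cxcr4 and Ackr3, Cxcl13 draws B cells through Cxcr5, and Cxcl16 is made as a membrane protein that binds Cxcr6 and is shed by proteases.

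Members of both receptor classes differed between the groups. In the Sg-C3 libraries the test called higher 2 of the 3 Cxcr3 ligands, Cxcl9 and Cxcl11, 1 of the 4 neutrophil attractants, Cxcl5, and Cxcl16. Cxcl10, Cxcl1, Cxcl2, Cxcl3 and Cxcl13 did not pass the test, and Cxcl12 stayed below 1 FPKM in every library. FPKM are fragments scaled to transcript length and to the size of the library, so levels can be compared between genes. The test was limma on log2(FPKM + 1) across the 11198 genes that reached 1 FPKM in 3 or more libraries, and a gene is called at a Benjamini-Hochberg adjusted p below 0.05. Of the 9 members tested, 4 were called higher and none lower, and no member reached the filter through 1 group alone. Across all tested genes 44.4% were called, 12.7% higher and 31.7% lower, and the median log2 fold change was -0.16 against 0.50 for the 9 members. The groups did not overlap for 4 of the 9, all higher in Sg-C3, against 57.6% of all tested genes, 16.2% higher and 41.4% lower. Lower calls made up 71.5% of all 4972 calls (1418 higher and 3554 lower) with the deposited scaling, 56.9% with quantile-normalized values and 50.5% with median-ratio size factors, which moved the median of all genes to -0.06 and -0.02. Relative to the median of all tested genes, the log2 fold changes were 3.08 for Cxcl9, 2.72 for Cxcl5, 1.51 for Cxcl11, 0.72 for Cxcl16, 0.66 for Cxcl10, 0.44 for Cxcl2, 0.07 for Cxcl3 and -0.14 for both Cxcl1 and Cxcl13.

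**Figure D1:**
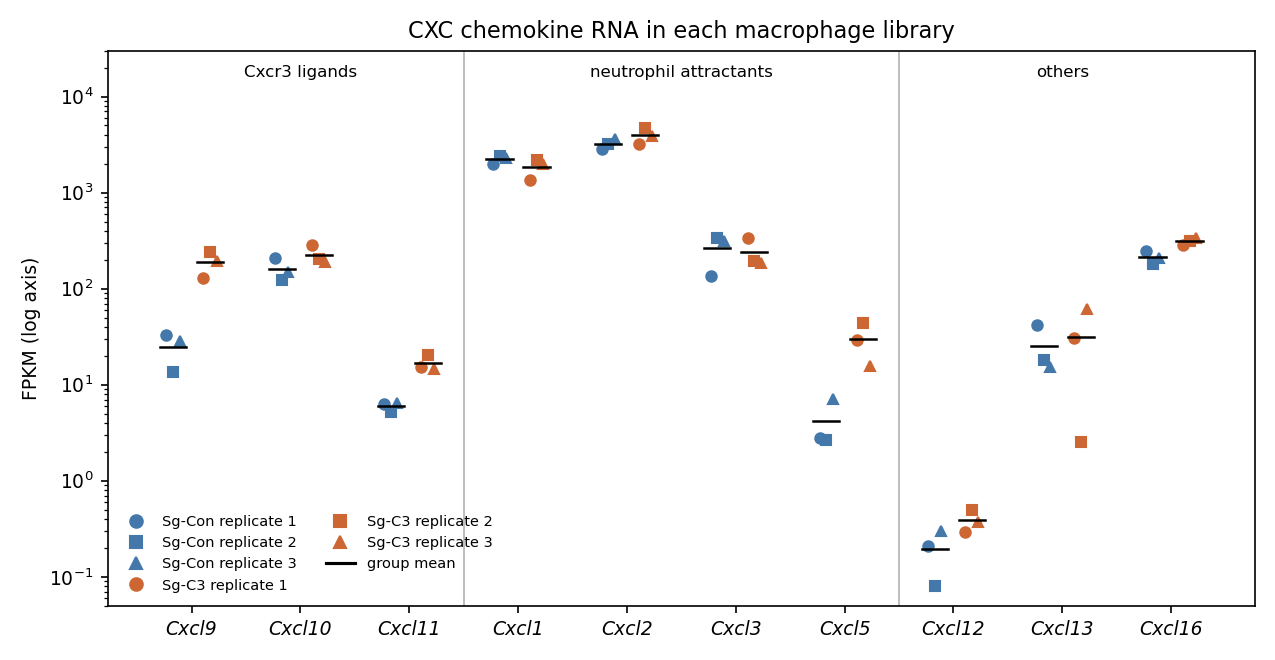
FPKM of the 10 CXC chemokine genes (log axis) in each library, with 3 Sg-Con and 3 Sg-C3 libraries as separate markers and the group mean as a bar. For Cxcl9, Cxcl11, Cxcl5 and Cxcl16 every Sg-C3 library lies above every Sg-Con library, and the groups overlap for the other 6.

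Cxcl9, a T cell attractant, had the largest estimated fold change of the 9 tested members, though its 95% interval (2.10 to 3.74 on the log2 scale) overlapped that of Cxcl5 (1.57 to 3.54), and without Sg-C3 replicate 3 the order turned (2.87 for Cxcl9 and 2.93 for Cxcl5). Its values were 32.8, 13.4 and 28.5 FPKM in Sg-Con replicates 1, 2 and 3, and 130, 239.4 and 196 FPKM in the Sg-C3 replicates. All Sg-C3 libraries were above all Sg-Con libraries, with Sg-Con replicate 2 the lowest of the 6. The mean rose from 24.9 ± 10.2 to 188 ± 55.1 FPKM (SD, n = 3), a log2 fold change of 2.92 with a standard error of 0.35 (limma adjusted p = 0.00207). Cxcl9 ranked 30th by fold change of all tested genes.

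Cxcl11 stood at 6.3, 5.18 and 6.37 FPKM in Sg-Con and 15.4, 20.6 and 14.5 FPKM in Sg-C3, again without overlap. It rose 2.83-fold (limma log2 fold change 1.35 ± 0.15 SE, adjusted p = 0.00189) and had the lowest level of the 3 Cxcr3 ligands in all 6 libraries. RefSeq's annotation of the C57BL/6J reference lists Cxcl11 as a transcribed pseudogene. These hosts are labelled BALB/C, so that entry need not hold for them, and protein was not measured here.

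Cxcl10 was the highest of the Cxcr3 ligands in Sg-Con, at 210.9, 122 and 149 FPKM, and stood at 288, 202 and 187 FPKM in Sg-C3. Sg-Con replicate 1 lay above 2 of the Sg-C3 libraries, so the groups overlapped. The mean was 161 ± 45.5 against 226 ± 54.3 FPKM (limma log2 fold change 0.50 ± 0.23 SE, 95% interval -0.05 to 1.04, adjusted p = 0.117), and it was called when Sg-Con replicate 1 was left out (log2 fold change 0.71, adjusted p = 0.0366).

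The ratios of Cxcl9 and of Cxcl11 to Cxcl10 did not overlap between the groups. Cxcl9 amounted to 15.5%, 11% and 19.1% of the Cxcl10 level in Sg-Con, and to 45.2%, 119% and 105% in Sg-C3. In Sg-C3 replicates 2 and 3 Cxcl9 was thus the most abundant of these genes, and in replicate 1 Cxcl10 was. Cxcl11 amounted to 2.99% to 4.27% of Cxcl10 in Sg-Con and 5.34% to 10.2% in Sg-C3. Sg-C3 replicate 1, which had the highest Cxcl10 and the lowest Cxcl9 of its group, had the lowest of both ratios in that group, still above every Sg-Con library. These ratios were chosen after the values were seen and have no test; with 3 libraries a group, an exact permutation test cannot give a two-sided p below 0.1.

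The upstream sequences of Cxcl10 and Cxcl9 are shown because these nearby genes share a receptor but differed in how far they changed. They are the 250 bases before the start in RefSeq's promoter table of GRCm38.p6, 5′ to 3′, with capitals at matches to the interferon-stimulated response element (ISRE, searched as GAAA, any 2 bases and GAAA), the gamma-activated site (GAS, TTCNNNGAA) and the NF-kB consensus, each searched on both strands.
Cxcl10 (chr5:92348890-92349139, minus strand): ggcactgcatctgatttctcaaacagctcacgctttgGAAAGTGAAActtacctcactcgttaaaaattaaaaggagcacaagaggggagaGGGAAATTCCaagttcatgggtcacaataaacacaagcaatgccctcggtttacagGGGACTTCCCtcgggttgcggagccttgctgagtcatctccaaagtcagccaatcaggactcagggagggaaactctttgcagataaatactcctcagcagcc
Cxcl9 (chr5:92328080-92328329, minus strand): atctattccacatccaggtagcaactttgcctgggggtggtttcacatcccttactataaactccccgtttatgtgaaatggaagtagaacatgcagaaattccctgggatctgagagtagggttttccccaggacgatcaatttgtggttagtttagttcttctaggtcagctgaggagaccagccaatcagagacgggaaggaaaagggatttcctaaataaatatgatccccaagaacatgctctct
The Cxcl10 window held 1 ISRE match, GAAAGTGAAA, from 213 to 204 bases before the start, and NF-kB matches GGGAAATTCC and GGGACTTCCC at 159 to 150 and 103 to 94 bases. The Cxcl9 window held no match to these letters. Of 32851 promoter windows of this length, 2.98% held the ISRE, 7.02% the GAS and 3.9% the NF-kB consensus. A match is a string of letters and was not tested as a binding site. The search took exact letters, so a window without a match may still hold a variant of these elements.

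The neutrophil attractants held the most abundant and 1 of the least abundant members. Cxcl2 and Cxcl1 ranked 7th and 12th among all 15487 genes by mean FPKM in Sg-Con, and 6th and 25th in Sg-C3. The pair made up 87.6% to 89.2% of the summed FPKM of the 10 members in Sg-Con and 80.2% to 87.2% in Sg-C3. Neither passed the test.

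Cxcl2 stood at 2823, 3233 and 3603 FPKM in Sg-Con and at 3181, 4743 and 3902 FPKM in Sg-C3. The groups overlapped through Sg-C3 replicate 1 (limma log2 fold change 0.28 ± 0.17 SE, 95% interval -0.11 to 0.67, adjusted p = 0.202). Cxcl1 stood at 1976, 2419 and 2292 FPKM in Sg-Con and at 1345, 2171 and 1983 FPKM in Sg-C3, where replicate 1 was lowest of all (limma log2 fold change -0.31 ± 0.19 SE, 95% interval -0.75 to 0.13, adjusted p = 0.213). The estimates for these adjacent genes had opposite signs under every alternative tried. Their ratio separated the groups, with 1.43, 1.34 and 1.57 Cxcl2 per Cxcl1 in Sg-Con and 2.37, 2.19 and 1.97 in Sg-C3. This ratio was chosen after its values were seen and was not tested.

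Cxcl3 stood at 134, 339 and 317 FPKM in Sg-Con and 339, 193 and 183 FPKM in Sg-C3, so the groups overlapped widely, with Sg-Con replicate 1 the lowest of all and Sg-C3 replicate 1 level with the highest Sg-Con library. Its log2 fold change was -0.09 (SE 0.39, limma adjusted p = 0.861), and the sign turned after median-ratio scaling (0.08). Sg-C3 replicate 1 had the highest Cxcl3 of its group and the lowest Cxcl1 and Cxcl2, whereas Sg-Con replicate 1 was lowest of its group for all 3. Per Cxcl1, Cxcl3 was 0.252 in Sg-C3 replicate 1 against 0.0889 and 0.0923 in the other Sg-C3 libraries. Cxcl2 and Cxcl3 are close relatives, and 5.84% of the 50-base windows in Cxcl2 transcripts of GENCODE M21 also occur in Cxcl3, so reads from those windows could be counted for either.

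**Figure D2:**
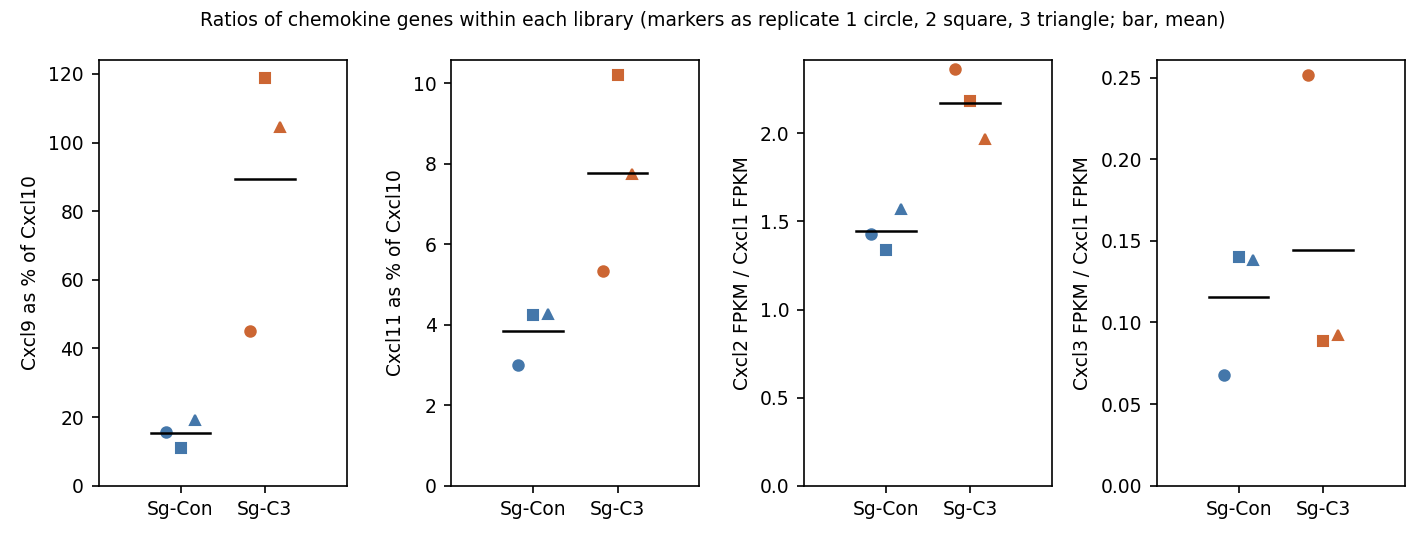
Ratios of FPKM within each library for Cxcl9 to Cxcl10 and Cxcl11 to Cxcl10 (percent), and for Cxcl2 to Cxcl1 and Cxcl3 to Cxcl1. Points are libraries, and bars are group means. The groups separate in the first 3 panels, while in the last Sg-C3 replicate 1 stands alone at 0.252.

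Cxcl5 was the exception among the neutrophil attractants. It stood at 2.81, 2.63 and 7.07 FPKM in Sg-Con and 29.2, 43.8 and 15.8 FPKM in Sg-C3. The groups did not overlap, and Sg-C3 replicate 3 and Sg-Con replicate 3 were the closest. The mean rose from 4.17 ± 2.51 to 29.6 ± 14 FPKM (limma log2 fold change 2.56 ± 0.42 SE, adjusted p = 0.00476), 53rd by fold change of all tested genes. Even so it supplied only 0.26% to 0.612% of the summed FPKM of the neutrophil attractants in Sg-C3, and 0.0439% to 0.114% in Sg-Con.

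The upstream windows of Cxcl3, Cxcl1 and Cxcl2 are shown because they carry the same NF-kB match in genes of very different level.
Cxcl3 (chr5:90785851-90786100, plus strand): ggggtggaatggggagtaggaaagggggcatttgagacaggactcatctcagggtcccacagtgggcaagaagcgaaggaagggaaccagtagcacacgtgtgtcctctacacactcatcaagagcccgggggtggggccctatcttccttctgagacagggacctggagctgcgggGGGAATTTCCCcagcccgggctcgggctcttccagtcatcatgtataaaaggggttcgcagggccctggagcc
Cxcl1 (chr5:90890995-90891244, plus strand): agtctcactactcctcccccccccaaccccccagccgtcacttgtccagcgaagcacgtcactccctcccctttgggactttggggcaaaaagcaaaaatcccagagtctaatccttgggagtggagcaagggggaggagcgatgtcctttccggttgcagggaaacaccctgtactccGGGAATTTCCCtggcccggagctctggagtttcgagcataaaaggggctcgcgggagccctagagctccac
Cxcl2 (chr5:90903649-90903898, plus strand): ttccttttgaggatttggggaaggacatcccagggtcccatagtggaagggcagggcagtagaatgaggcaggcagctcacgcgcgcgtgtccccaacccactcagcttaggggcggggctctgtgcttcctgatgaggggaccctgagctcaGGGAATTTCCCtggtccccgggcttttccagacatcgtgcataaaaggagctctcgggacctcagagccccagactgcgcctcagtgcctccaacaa
GGGAATTTCC lies at 73 to 64 bases before the start in Cxcl3, 71 to 62 in Cxcl1 and 97 to 88 in Cxcl2, and the opposite strand matches 1 base further on, so the capitals cover 1 site read on both strands. None of the 3 windows held the ISRE or the GAS letters. RefSeq's table gave windows for 7 of the 10 members, and those of Cxcl12 and Cxcl13 held none of these motifs.

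The summed FPKM of the Cxcr3 ligands did not overlap between the groups, while that of the neutrophil attractants did. The Cxcr3 ligands summed to 249.98, 141 and 184 FPKM in Sg-Con and 433, 462 and 398 FPKM in Sg-C3. The neutrophil attractants summed to 4935, 5994 and 6219 FPKM in Sg-Con and 4894, 7150 and 6084 FPKM in Sg-C3. The log2 ratio of the sums was -4.30, -5.41 and -5.08 in Sg-Con and -3.50, -3.95 and -3.94 in Sg-C3, a difference of means of 1.14 with a pooled SD of 0.44. The neutrophil attractants remained at 86.7% to 90.2% of the summed family in Sg-C3, against 90.1% to 94.6% in Sg-Con. By gene rather than by sum, the median log2 fold change was 1.35 for the 3 Cxcr3 ligands, with a range of 0.50 to 2.92, and 0.10 for the 4 neutrophil attractants, with a range of -0.31 to 2.56. The ranges of the classes overlap, since Cxcl5 changed more than Cxcl10 or Cxcl11. No p-value is given for these sums, because the members were chosen with results known.

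**Figure D3:**
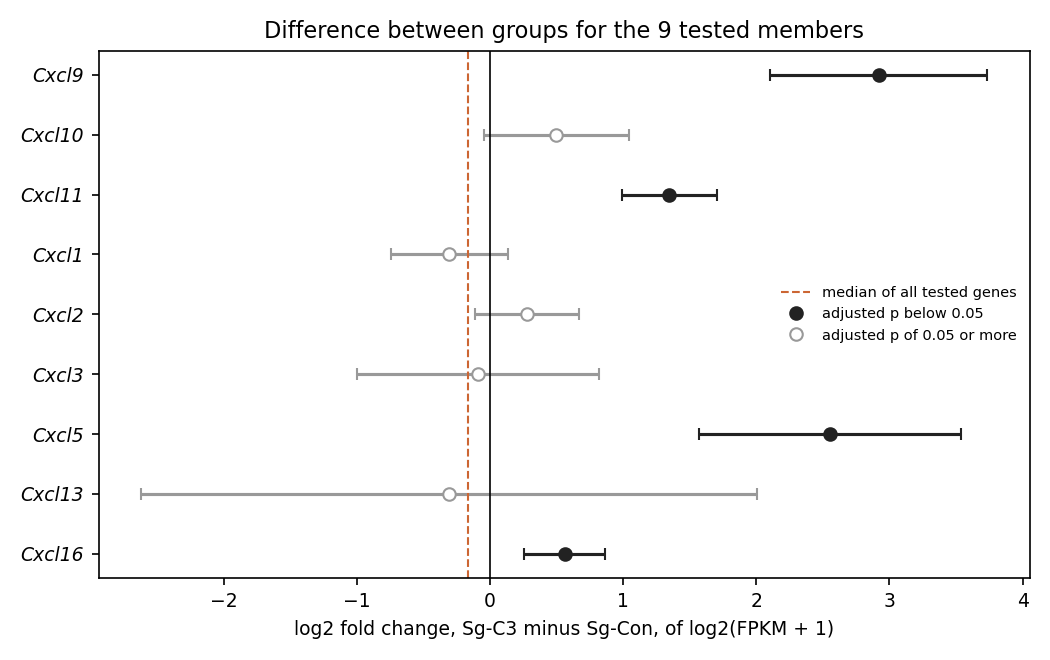
Log2 fold change of log2(FPKM + 1), Sg-C3 minus Sg-Con, for the 9 tested members. Points are limma estimates, bars are 95% intervals, filled points have an adjusted p below 0.05, and the dashed line is the median of all tested genes at -0.16. Cxcl9 and Cxcl5 lie farthest right, and the intervals of the 5 open points include 0.

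Cxcl16, the membrane-bound member, stood at 247, 180 and 207 FPKM in Sg-Con and 288, 310 and 334 FPKM in Sg-C3. The groups did not overlap, and the rise was small but even (limma log2 fold change 0.56 ± 0.13 SE, adjusted p = 0.0133). Of its known sheddases, Adam10 fell from 36.7 ± 2.42 to 20.2 ± 4.92 FPKM (log2 fold change -0.86, adjusted p = 0.00809), and Adam17 stood at 78.6 ± 12.4 and 82.7 ± 6.62 FPKM (adjusted p = 0.627). Its receptor gene Cxcr6 rose from 0.587 ± 0.17 to 2.01 ± 0.653 FPKM (log2 fold change 0.91, adjusted p = 0.00757), but it reached the filter only through its Sg-C3 values and drops below it when any Sg-C3 library is left out.

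Cxcl13 varied more within groups than between them. It stood at 42.2, 18 and 15.2 FPKM in Sg-Con and 30.5, 2.54 and 61.9 FPKM in Sg-C3, so Sg-C3 held both the lowest and the highest of the 6 libraries. The log2 fold change was -0.31 (SE 0.99, limma adjusted p = 0.813), and without Sg-C3 replicate 2 it was 0.91 and still not called (adjusted p = 0.193). Cxcl12, a stromal chemokine, stood at 0.21, 0.08 and 0.3 FPKM in Sg-Con and 0.29, 0.5 and 0.37 FPKM in Sg-C3. It passed no filter, and without a filter it was not called (limma adjusted p = 0.140), where 32.1% of 15487 genes were and 22.1% were lower.

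In order of level, Cxcl2 was followed by Cxcl1, Cxcl3, Cxcl16, Cxcl10, Cxcl13, Cxcl9, Cxcl11, Cxcl5 and Cxcl12 in Sg-Con. In Sg-C3 the order was Cxcl2, Cxcl1, Cxcl16, Cxcl3, Cxcl10, Cxcl9, Cxcl13, Cxcl5, Cxcl11 and Cxcl12. Among Cxcl3, Cxcl16 and Cxcl10, the ranges of genes next to each other in this order overlapped in both groups. In Sg-Con the ranges of Cxcl13 and Cxcl9 and of Cxcl11 and Cxcl5 overlapped too. In Sg-C3 Cxcl10 and Cxcl9 also overlapped, as did Cxcl13 with Cxcl5 and Cxcl5 with Cxcl11. Cxcl2 stood above Cxcl1, and Cxcl1 above the next gene, without overlap in both groups.

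Along chromosome 5 in RefSeq's annotation of GRCm38.p6, the genes run Cxcl5, Ppbp, Pf4, Cxcl3, Cxcl15, Cxcl1 and Cxcl2, and further on Cxcl9, Art3, Cxcl10 and Cxcl11. Directions differed between neighbours in the first cluster. Ppbp and Pf4, CXC chemokines best known from platelets, fell while Cxcl5 beside them rose. Pf4 stood at 405, 889 and 892 FPKM in Sg-Con and 94.1, 47.8 and 120 FPKM in Sg-C3 (limma log2 fold change -3.05 ± 0.41 SE, adjusted p = 0.00272). Ppbp stood at 8.35, 7.59 and 11.8 FPKM in Sg-Con and 1.16, 0.29 and 1.34 FPKM in Sg-C3 (limma log2 fold change -2.43 ± 0.26 SE, adjusted p = 0.00162). Cxcl14, on another chromosome, stood at 23.6 ± 7.16 and 14 ± 4.33 FPKM and did not pass (adjusted p = 0.0757), though it was called lower with array weights (-0.83, limma adjusted p = 0.0421) and without Sg-Con replicate 2 (-0.96, adjusted p = 0.0374). In the fit of all libraries 2 of these 3 other CXC genes were lower and none higher, against 31.7% and 12.7% of all tested genes.

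**Figure D4:**
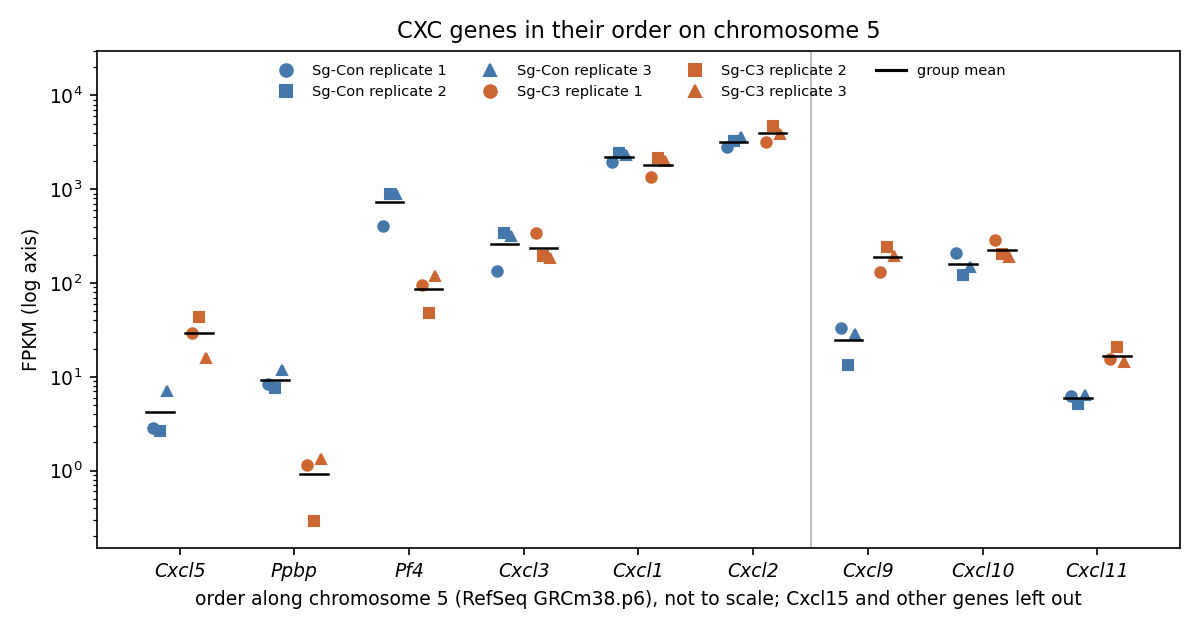
FPKM (log axis) of 9 CXC genes in their order on chromosome 5, not to scale, with libraries as markers and group means as bars. Cxcl5 is higher in Sg-C3, its neighbours Ppbp and Pf4 are lower, and Cxcl3, Cxcl1 and Cxcl2 overlap.

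The receptors of these chemokines were mostly low in the sorted cells. Of 8 receptor genes, 4 were tested, and 1 was called higher and 1 lower, against 12.7% and 31.7% of all tested genes. Cxcr3 stood at 0.62, 0.47 and 0.79 FPKM in Sg-Con and 0.36, 0.36 and 0.5 FPKM in Sg-C3, below the filter, while its ligands were at up to 288 FPKM. Cxcr2, the receptor of the neutrophil attractants, stood at 5.96, 5.56 and 5.55 FPKM in Sg-Con and 8.73, 6.77 and 6.45 FPKM in Sg-C3. It did not pass (log2 fold change 0.30, limma adjusted p = 0.0856), but it was called after quantile normalization (0.47, adjusted p = 0.0218) and median-ratio scaling (0.45, adjusted p = 0.0251). Cxcr4, the Cxcl12 receptor, was the most abundant receptor gene and fell from 98 ± 13.4 to 48.6 ± 10.1 FPKM (limma log2 fold change -1.01 ± 0.17 SE, adjusted p = 0.00505). Ackr3 stood at 12.6 ± 3.91 and 11.2 ± 3.2 FPKM (adjusted p = 0.636).

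**Figure D5:**
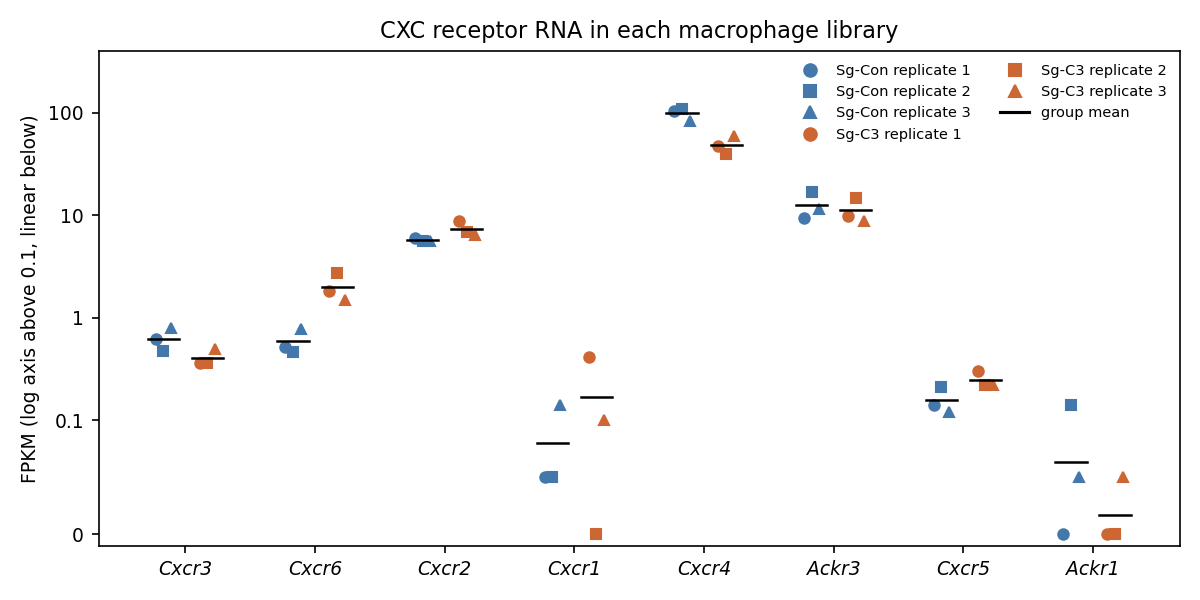
FPKM of 8 receptor genes of CXC chemokines in each library (log axis above 0.1, linear below), with group means as bars. Cxcr4 is the highest and lower in Sg-C3, Cxcr6 is higher in Sg-C3, and Cxcr3 lies below 1 FPKM in all 6 libraries.

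Genes of the interferon gamma pathway, which induces the Cxcr3 ligands, were mostly higher. Of 12 listed genes 11 were tested, with 7 called higher, 2 lower and 2 not called, and a median log2 fold change of 0.71. Across all tested genes 12.7% were called higher and 31.7% lower, with a median of -0.16. Ifng, the gene of the cytokine itself, was listed at 0 in all 3 Sg-Con libraries and at 1.62, 1.15 and 0.85 FPKM in Sg-C3. The kinase gene Jak2 rose from 29.8 ± 5.34 to 107 ± 16.6 FPKM and Irf1 from 81.8 ± 3.6 to 153 ± 5.98 FPKM (limma adjusted p = 0.00107 and 0.00115). Stat2, Irf9 and the feedback inhibitor genes Socs1 and Socs3 were also called higher. The receptor genes went the other way. Ifngr1 fell from 60.3 ± 10.9 to 34.9 ± 6 FPKM (adjusted p = 0.0108), and Ifngr2 stood just inside the threshold (adjusted p = 0.0490) and lost its call when any library but Sg-C3 replicate 3 was left out. It was also not called with a pseudocount of 0.1, without a filter, with the title covariate, with quantile normalization (log2 fold change -0.19, adjusted p = 0.111) or with median-ratio scaling (-0.09, adjusted p = 0.401).

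Genes of NF-kB and interleukin 1 signalling, which induces the neutrophil attractants, were mostly higher too, although Cxcl1, Cxcl2 and Cxcl3 were not called. Of 16 tested genes 10 were called higher, 2 lower and 4 not called, with a median log2 fold change of 0.59. The shares over all tested genes were 12.7% higher and 31.7% lower. Il1a rose from 592 ± 68.8 to 1030 ± 73.2 FPKM, and the NF-kB subunit gene Nfkb1 from 89.5 ± 25.3 to 197 ± 11.6 FPKM (limma adjusted p = 0.00301 and 0.00409). Il1b rose from 2437 ± 269 to 4267 ± 1111 FPKM (log2 fold change 0.78, adjusted p = 0.0206), but its call was lost after quantile normalization (adjusted p = 0.153) and without Sg-Con replicate 2 or 3 or Sg-C3 replicate 2 or 3. Tnf stood at 555 ± 47.9 and 653 ± 26.4 FPKM (adjusted p = 0.0787), and Nfkbia and Nfkbiz overlapped between the groups. The lower members were Tnfrsf1a and Tlr4, and leaving out any of Sg-Con replicate 1 and Sg-C3 replicates 1 and 2, or median-ratio scaling, left neither called.

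Among proteases that trim or shed CXC chemokines, 1 of 6 tested genes was called higher and 1 lower, against 12.7% and 31.7% of all tested genes. Mmp14 rose from 222 ± 6.83 to 344 ± 29.2 FPKM (limma adjusted p = 0.00333), and Adam10 was the lower gene. Dpp4, which clips Cxcr3 ligands, stayed below the filter at 0.18 ± 0.0656 and 1.06 ± 0.418 FPKM, and was called higher without a filter (limma adjusted p = 0.00923).

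The genes whose 6 library values lay closest to each member, by root mean square distance of mean-centred log2(FPKM + 1), were searched among 7429 genes. The closest to Cxcl9 was Il12b at 0.12, followed by Timd4 at 0.20. Cxcl10 was closest to Ddx58 and Znfx1, at 0.13 and 0.15, and Cxcl11 to Tbc1d9 and Gk, at 0.08 and 0.09. Cxcl5 was closest to Edn1 and Procr, at 0.28 and 0.30, and Cxcl16 to Gsap at 0.03 and Rnf145 at 0.04. Cxcl2 was closest to Lats2 and Cdkn1a at 0.05 and 0.06, Cxcl1 to C1galt1c1 and Extl2 at 0.10 and 0.12, and Cxcl3 to Pdlim1 and Rassf8 at 0.19 and 0.22. For Cxcl13 the nearest, Snord14e and Klf2, were at 0.62 and 0.68. No member was among the 2 genes closest to another member.

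The sorted cells carried the RNA of macrophages in both groups, with Adgre1 at 173 ± 11.6 and 172 ± 29.8 FPKM, but markers of other cell types differed between the groups. Of 7 macrophage markers, 4 were called lower, Lyz2 and Cd68 among them, and none higher. Across all tested genes 31.7% were called lower and 12.7% higher, which is the base for each marker count here. The macrophage list summed to 8954 to 10659 FPKM in Sg-Con and 3875 to 5203 FPKM in Sg-C3. Most of that sum was Lyz2, at 7712 ± 915 and 3378 ± 579 FPKM. In bulk samples a change in the number of cells of a type cannot be told apart from a change in RNA per cell. Beside the Cxcr3 ligands, 6 of 13 T and NK cell markers were tested and all 6 were higher (4 of them reached the filter through Sg-C3 alone, and 2 were called when any Sg-C3 library was left out), and their summed FPKM ranged from 3.5 to 8.92 in Sg-Con and from 46.1 to 55.9 in Sg-C3. Of the CD3 chain genes that define T cells, Cd3g was at 0 to 0.05 FPKM in Sg-Con and 1.07 to 2 FPKM in Sg-C3, and Cd3d at 0.35 to 0.45 and 0.68 to 1.71 FPKM, both without overlap. Cd3e overlapped, at 0.52 to 2.2 and 0.78 to 1.58 FPKM. The T and NK list had its highest Sg-C3 means for Klrk1 (1.80 ± 0.909 FPKM in Sg-Con and 14.0 ± 2.15 in Sg-C3) and Cd4 (1.56 ± 1.14 and 12.8 ± 3.67). Cxcr3, also of this list, had a lower estimate in Sg-C3 (log2 fold change -0.21 without a filter, limma adjusted p = 0.158). Dendritic cell markers summed to 13.3 to 18.7 and 45.1 to 69.9 FPKM, with 3 of 4 tested members higher. Most of the rise in that sum was Ccr7, at 1.33 to 3.23 FPKM in Sg-Con and 21.46 to 46.05 FPKM in Sg-C3. Fscn1, the tested member not called, stood at 7.59 ± 1.11 and 7.62 ± 1.16 FPKM (limma adjusted p = 0.982). Beside the neutrophil attractants, 4 of 7 tested neutrophil markers were higher (2 without Sg-C3 replicate 1, Sg-Con replicate 1 or Sg-Con replicate 2) and the list summed to 137 to 216 FPKM in Sg-Con and 377 to 1331 FPKM in Sg-C3, highest in replicate 1. Most of the Sg-C3 sum was S100a8 and S100a9, together at 78.6 to 148 FPKM in Sg-Con and 275 to 1127 FPKM in Sg-C3. Mmp8 of this list had a lower estimate in Sg-C3 (log2 fold change -1.04, limma adjusted p = 0.0707). It was called lower without Sg-C3 replicate 1 or without Sg-Con replicate 3. Ly6g, which defines neutrophils, was at 0 to 0.07 FPKM in Sg-Con and 0.12 to 1.01 FPKM in Sg-C3. Ly6g did not reach the filter and was not called without one (limma adjusted p = 0.0789). Beside Cxcl5, fibroblast markers summed to 67.5 to 93.3 FPKM in Sg-Con and 143 to 208 FPKM in Sg-C3. Of 8 tested members 4 were higher, and 2, Col1a2 and Thy1, were lower. Most of the rise in the sum was Dcn, at 17.9 to 28.75 FPKM in Sg-Con and 85.28 to 134.7 FPKM in Sg-C3. All 3 tested carcinoma markers were lower (1 of them, Krt8, reached the filter through Sg-Con alone, and 2 were called when any Sg-Con library was left out), with sums of 28 to 63.1 and 2.62 to 7.58 FPKM. B cell markers summed to 1.76 to 4.62 and 4.72 to 6.91 FPKM beside Cxcl13. Only 1 of the 5 listed was tested, Cd79b, which made up most of each sum and was not called (limma adjusted p = 0.198). Of 3 tested endothelial markers Pecam1 was higher and Cdh5 lower. Cdh5 reached the filter through Sg-Con alone and was not called when any library was left out. The list summed to 9.74 to 18 FPKM in Sg-Con and 60.2 to 79.1 FPKM in Sg-C3. Most of the Sg-C3 sum was Pecam1, at 4.54 to 12.5 FPKM in Sg-Con and 53.5 to 74.7 FPKM in Sg-C3. Kdr, the other tested marker, overlapped between the groups. The part these cells have in the chemokine values was not tested.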

How the data were processed

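RNA was extracted with Trizol, per the labels' protocols, where TruSeq and MGIEasy library kits are both named. The authors deposited 1 table of FPKM per gene and library, with 2 decimals, per the file headers. Bowtie 0.12.2 and mm8 are named per the submitters' processing notes, with no role given and FPKM software not given in the sources used here. Since the values are FPKM, no count test was run. Library sums ran from 474579 to 487358 FPKM. Whole-read steps in the low values of 403 short non-coding genes gave estimated depths of 17.9 to 19.8 megareads, with 88.1% to 94.2% of values within 0.1 read of a whole number. Libraries correlated at Pearson r of 0.986 to 0.990 within groups and 0.945 to 0.974 between groups, over log2 values of genes, which are not independent, and no 2 were identical. Symbols turned into dates (23) were restored by gene identifier.

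limma 3.58.1 (eBayes with trend, R 4.3.3) compared log2(FPKM + 1) of genes reaching 1 FPKM in 3 or more libraries, Sg-C3 minus Sg-Con, which understates changes of low genes. SE is limma's moderated standard error. Tables and figures used Python 3.11.15, pandas 2.3.3, numpy 2.4.6 and matplotlib 3.10.9. On 10 simulated sets of 11198 genes with 200 changed, 63.2% of 2-fold and 88.9% of 4-fold changes were found, and 5.5% of calls were false. In the data 44.4% of tested genes were called, far above the simulated share, so these rates need not hold for this comparison. Members and lists were chosen with earlier results of these data known. Named are the members, the genes of the pathway lists, marker genes by level or call, and the 2 nearest genes of each member with a mean of at least 5 FPKM, leaving out Gm and Rik names. Cd3d, Cd3e, Ly6g and Adgre1 were named after their values were seen. Cxcl15, Cxcl17, Il17a, Krt7 and Tek were not analysed here, and 1 gene counted in a list is not reported here by name. Alternatives were a pseudocount of 0.1, no filter, a mean of at least 5 FPKM, quantile and median-ratio scaling, array weights, a robust prior, the title style as covariate, an adjusted p of 0.1 and leaving out each library. The title style set replicate 3 of each group, titled CON or SGC3, apart from the other replicates, titled TAM or C3KO.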

Additional observations from a re-analysis of the deposited data

How the results depend on the processing

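Cxcl9, Cxcl11, Cxcl5 and Cxcl16 were called higher under all 14 alternatives, with limma adjusted p from 0.00137 to 0.0119, 0.00114 to 0.0107, 0.00276 to 0.0218 and 0.00668 to 0.0477. Cxcl10 was called under 1 of 14, and Cxcl1, Cxcl2, Cxcl3 and Cxcl13 under none. The number of members called was 4 to 5 when each library was left out. The difference in the log2 ratio of summed Cxcr3 ligands to summed neutrophil attractants was 0.90 to 1.45 when each library was left out. Pseudocount, filter and covariate do not enter that ratio. Over all genes, 4972 were called, and 2780 to 5062 when each library was left out, with 3293 without Sg-C3 replicate 1 and 2780 without Sg-C3 replicate 2. The log2 fold change of Cxcl3 was positive under median-ratio scaling (0.0767) and ran from -0.52 to 0.15 when each library was left out, positive when Sg-Con 2 or 3 or Sg-C3 2 or 3 was dropped. That of Cxcl13 ran from -1.17 to 0.91, positive when Sg-Con 1 or Sg-C3 2 was dropped. Ackr3 turned from -0.15 to 0.000196 under quantile normalization and 0.00178 under median-ratio scaling, and ran from -0.36 to 0.0682 when each library was left out. Nfkbiz turned from -0.14 to 0.0221 under median-ratio scaling. None of these reversed values was called, and the cause was not tested. No paired analysis was possible because the labels give the groups no shared replicate numbers. Depth limits Cxcl12, Cxcr3 and other genes below 1 FPKM.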
